A study of Xenopus tropicalis with 9 samples.

Results

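The 3 RNA-seq libraries that carry replicate number 3 were compared with the 6 libraries numbered 1 or 2, across all treatments of a study of *Xenopus tropicalis* embryos. The libraries of replicate 3 are 3 of the 9 in the series, 1 from each treatment, and were chosen by the number in their labels. The study's model holds a term for embryo batch beside treatment, and the replicate number was taken here to stand for that batch. All embryos were of the Nigerian strain, were injected and were collected whole at stage 14, the early neurula. Control embryos received water, Fgf4 embryos received 5 pg of a plasmid (Cska-Fgf4) that carries *fgf4* behind the Cska promoter, and Cic knockdown embryos received 1 ng each of the forward and reverse Cic-TALEN mRNAs. TALENs are engineered nucleases that cut DNA as a pair, so the injected embryos can carry a mixture of edited and intact cells. Each treatment has 3 libraries. The question put to the data was which genes and gene groups differed between embryo batches of the same nominal stage, whatever had been injected.

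The early neurula is a time of fast change. The neural plate is outlined, the mesoderm is laying down notochord and somites, and the future skin is specifying multiciliated cells, ionocytes and mucus-secreting cells. Stages are assigned by the shape of the embryo, and every library carries the same stage in its labels.

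The deposited values are TPM, a transcript's share of the library per unit of its length, rescaled between libraries. The libraries of replicate 3 sum to 1162165 (control), 1134490 (Fgf4) and 1092718 (Cic knockdown), and the other 6 sum to between 871757 and 994659. TPM over all transcripts would give every library the same total. The factors that rescaled these values are not given, and no gene encoded in the mitochondrial genome was found among the values. Whether the factors were larger in replicate 3 is therefore not known. The counts of calls between replicate numbers and for each gene list were also made with all libraries at 1 common total. Between 3459 and 4864 genes were listed at 0 in a library. *fgf4*, the gene on the injected plasmid, stood at 1692, 168 and 95.4 TPM in Fgf4 libraries 1, 2 and 3 against 0.953 to 6.57 TPM in the 6 others. *cic* lay between 11.8 and 16.2 TPM in all 9 libraries and did not pass the test between replicate 3 and the rest (-0.11 ± 0.13 (SE) on the log2 scale, limma adjusted p = 0.506).

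The leading axis of variation separated replicate 3 from the rest. On the first principal component of log2(TPM + 0.5), which held 43.7% of the variance, the 3 libraries of replicate 3 lay between 53 and 79 and the 6 others between -50.7 and -17.9. Membership of replicate 3 accounted for a share of 0.948 of the spread along that axis and treatment for 0.0077. Over 13117 genes, the correlation between a replicate 3 library and one of the others was 0.833 to 0.910 (18 pairs, median 0.876). It was 0.941 to 0.980 among the 3 libraries of replicate 3, which had received different injections, and 0.871 to 0.971 among the 6 others (15 pairs). These values describe libraries that share all their genes, and no test was made on them.

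Each gene with a mean of at least 1.5 TPM over all 9 libraries was fitted with limma on log2(TPM + 0.5), with treatment as a block and replicate 3 against the rest as the term of interest. On such a scale, changes of genes close to 0 TPM come out too small. The call rule set 0.05 as the upper limit of p after Benjamini-Hochberg adjustment, and asked for a difference of 0.81 or more in size on the log2 scale. Of 13117 genes tested, 1902 (14.5%) were higher in replicate 3 and 1637 (12.5%) were lower. Among them, 245 were at least 4-fold higher and 186 at least 4-fold lower. When every library was first scaled to a total of 1000000, the numbers became 1135 higher (8.65%) and 2666 lower (20.3%). Counts of list members at 1 total are to be read against these shares, and the others against 14.5% and 12.5%. The share of calls that were higher thus moved from 53.7% to 29.9%, and the median difference of all genes from 0.03 to -0.22 on the log2 scale. Replicate 3 is 1 batch, so p measures the spread between these libraries and not between many batches, and the labels do not say whether replicates came from separate clutches. Differences in how the libraries were made or sequenced cannot be told apart here from differences between the embryos.

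The split was between replicate 3 and both other numbers. In a fit with a term for each replicate number, 3622 genes (27.6%) were called between replicates 3 and 1 and 3960 (30.2%) between replicates 3 and 2. Between replicates 2 and 1 the number was 30 (0.229%), with 16 higher and 14 lower. The comparison of 2 with 1 had 2749 genes at an unadjusted p under 0.05, against 6594 and 6877 in the others. The median size of the difference was 0.57 and 0.60 on the log2 scale for the comparisons with replicate 3 and 0.30 between replicates 2 and 1. The 3 comparisons share libraries, and each rests on 3 libraries against 3.

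**Figure D1:**
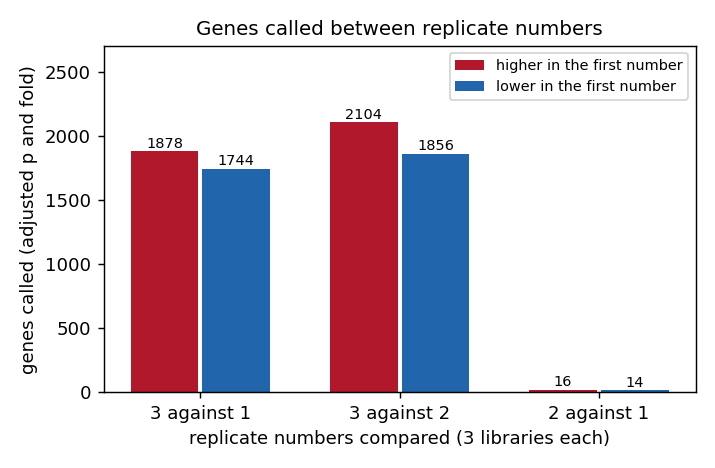
Bars give the number of genes called higher (red) or lower (blue) in limma between each pair of replicate numbers, 3 libraries against 3 with treatment as a block. Replicate 3 gave 1878 higher and 1744 lower against 1 and 2104 and 1856 against 2, while 2 against 1 gave 16 and 14.

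The differences found in control embryos were looked up in the injected embryos. The size of the difference was taken from the control libraries alone, but the filter on mean TPM used all 9 libraries. The injected libraries thus had a part in which genes could be chosen. The shares of all genes tested, given beside, carry the same filter. In the control libraries alone, 2494 genes were past that limit and higher in replicate 3 than in both other libraries. Of these, 78.0% were likewise past the limit without overlap in the Fgf4 libraries, where 24.1% of all genes tested were, and 57.5% in the Cic knockdown libraries, where the figure for all genes was 15.5%. Another 1924 genes were lower in control replicate 3. The same was seen for 75.1% of them in the Fgf4 libraries (18.4% of all genes tested) and for 65.2% in the Cic knockdown libraries (17.4% of all genes tested). No test was made within a treatment, where 1 library stands against 2.

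The gene with the smallest p was *lin28a*, which encodes an RNA-binding protein that blocks the maturation of *let-7* microRNAs. It stood at 355 and 389 TPM in control libraries 1 and 2, 406 and 453 TPM in the Fgf4 libraries and 327 and 401 TPM in the Cic knockdown libraries of those numbers. In replicate 3 it stood at 19.8, 18.8 and 25.3 TPM for control, Fgf4 and Cic knockdown. Every library of replicate 3 was far below every other library, and the treatments lay close together. The log2 difference over the 9 libraries was -4.16 ± 0.15 (SE), with limma adjusted p = 3.92e-05, a level 17.9-fold lower. Values of replicate 3 are given below in the order control, Fgf4 and Cic knockdown, and errors of differences are standard errors of the fit. *trim71*, whose product binds RNA and is itself a target of *let-7*, followed the same pattern. Its values were 43.7 to 52.1 TPM (median 47.4) in replicates 1 and 2 and 5.27, 4.74 and 5.9 TPM in replicate 3, a difference of -3.06 ± 0.13 (SE) with limma adjusted p = 3.92e-05.

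Genes of the *let-7* pathway were counted from a list drawn up after *lin28a* and *trim71* had been seen, and holding both. Of 18 members tested, 8 were lower and none was higher, where 12.5% of all genes were lower, with a median of -0.34 beside 0.03 for all genes. *lin28a* and *trim71* are among the 8. *arid3b*, an AT-rich DNA-binding factor, fell from a median of 80.8 TPM (range 61.0 to 118) to 5.13, 3.11 and 5.42 TPM in replicate 3 (-4.08 ± 0.24 (SE), limma adjusted p = 0.000124). *hmga2*, a chromatin protein and known *let-7* target, fell from a median of 76.9 TPM (range 56.9 to 81.3) to 25.5, 24.8 and 26.9 TPM (-1.46 ± 0.13 (SE), limma adjusted p = 0.000371). The groups did not overlap for either gene. *lin28b*, the second Lin28 gene, stood at 11.8 to 30.7 TPM (median 13.3) against 7.48, 9.32 and 5.55 TPM. It was called (-1.06, limma adjusted p = 0.0182), but not when control, Fgf4 or Cic knockdown library 3 or all libraries of replicate 1 were left out, with log2 differences between -1.40 and -0.72 over the fits that left libraries out. *dicer1*, which encodes the enzyme that cuts microRNA precursors, was called at -0.97 (limma adjusted p = 0.00615) and lost the call without replicate 1, at a log2 difference of -0.76. The count over the list was 6 to 8 when single libraries or replicate numbers were left out.

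Falls of the same order were also seen in genes outside that pathway. *nt5c1a*, a cytosolic nucleotidase that makes adenosine from AMP, was at 97.0 to 136 TPM (median 129) in replicates 1 and 2 and at 9.96, 9.76 and 10.9 TPM in replicate 3 (-3.51 ± 0.14 (SE), limma adjusted p = 3.92e-05). *plscr1*, a phospholipid scramblase of the plasma membrane, was at 114 to 149 TPM (median 135) and then at 16.4, 14.8 and 15.6 TPM (-3.05 ± 0.12 (SE), limma adjusted p = 3.92e-05). For both genes the replicate 3 libraries lay close together whatever the injection. *stim2*, a calcium sensor of the endoplasmic reticulum, fell from a median of 54.1 TPM (range 46.3 to 62.7) to 6.7, 7.79 and 9.16 TPM (-2.70 ± 0.14 (SE), limma adjusted p = 9.54e-05). *ptgfrn*, a membrane protein of the immunoglobulin superfamily, fell from a median of 40.9 TPM (range 31.8 to 50.6) to 3.68, 4.32 and 7.84 TPM (-2.90 ± 0.17 (SE), limma adjusted p = 0.000121). The other genes of the 10 with the smallest p were lower by 2.07 to 2.41 on the log2 scale, each without overlap between the groups. They were *pfkfb4*, a regulator of glycolysis (-2.17), *il11ra*, a cytokine receptor (-2.07), *rbm47*, an RNA-binding protein (-2.41), and *ahnak*, a very large scaffold protein (-2.11). *ahnak* was the most abundant of them at 382 to 596 TPM (median 484) in replicates 1 and 2 and 124, 97.7 and 110.4 TPM in replicate 3.

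The genes that rose with the smallest p included factors of transcription, the mitochondrion and protein turnover. *brd3*, a bromodomain protein that binds acetylated histones, was at 12.2 to 17.7 TPM (median 14.4) in replicates 1 and 2 and at 79.9, 95.2 and 83.6 TPM in replicate 3, 5.75-fold higher (2.52 ± 0.13 (SE), limma adjusted p = 9.54e-05). *triap1*, a small mitochondrial lipid-transfer and survival factor, was at 86.7 to 116 TPM (median 107) and then at 481, 466 and 384 TPM (2.1 ± 0.13 (SE), limma adjusted p = 0.000124). *ldb1*, a cofactor of LIM-homeodomain proteins, was at 168 to 242 TPM (median 191) and then at 616, 725 and 581 TPM (1.68 ± 0.10 (SE), limma adjusted p = 0.000124). In each case the lowest replicate 3 library was far above the highest of the other 6. *psma7*, a subunit of the proteasome core, rose from a median of 189 TPM (range 164 to 216) to 520.2, 586 and 498 TPM (1.5 ± 0.10 (SE), limma adjusted p = 0.000162). *mrpl27*, a protein of the mitochondrial ribosome, rose from a median of 42.8 TPM (range 36.7 to 48.5) to 156, 162 and 155 TPM (1.89 ± 0.12 (SE), limma adjusted p = 0.000137), and *mrpl41*, another, by 1.59 on the log2 scale (limma adjusted p = 0.000181). The remaining genes of the 10 with a level above 0 in every group were *ttc9c* (2.33), a tetratricopeptide protein, *faim* (1.79), an inhibitor of apoptosis, and *otud3* (2.28), a deubiquitinase. These 9 genes kept their call under every alternative run.

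**Figure D2:**
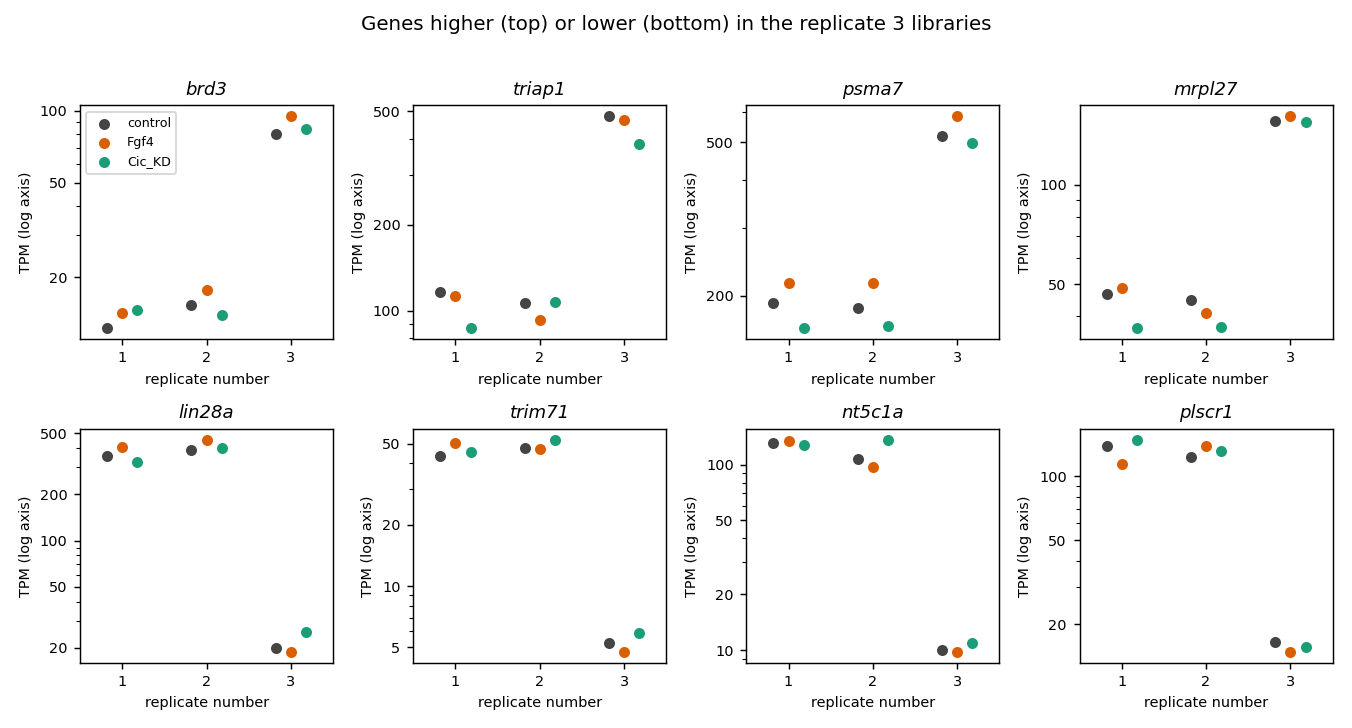
Points give the TPM of 8 genes in each of the 9 libraries on a log axis, by replicate number and coloured by treatment. The upper genes are higher in all 3 libraries of replicate 3 and the lower genes are lower in all 3, with *lin28a* at 19.8, 18.8 and 25.3 TPM there and at 327 to 453 TPM elsewhere.

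A few genes were listed at or near 0 TPM in every library of one side only. The rule asked for under 1 TPM in every library of one side and at least 5 TPM in every library of the other, and 4 called genes met it as higher and 2 as lower. The gene entry *mir181b-2* was listed at 0 in all 6 libraries of replicates 1 and 2 and at 6.52, 7.52 and 12 TPM in replicate 3. The entry *mir219* was likewise listed at 0 in all 6 and at 10.4, 27.1 and 7.21 TPM in replicate 3. These are poly(A) RNA values for the gene entries and not levels of the mature microRNAs. TPM is per unit of length and the values hold no counts. How many reads lie behind these entries is therefore not known. LOC101734778, which has no gene name in the table, was listed at 0 in the same 6 libraries and at 33.1, 24.3 and 67.5 TPM in replicate 3. *hist2h3d*, a histone H3 gene, was at 0 to 0.886 TPM and then at 5.6, 5.64 and 10.3 TPM. In the other direction, *cdk5r1*, an activator of the neuronal kinase Cdk5, was at 7.05 to 22.2 TPM in replicates 1 and 2 and at 0.473, 0.619 and 0.768 TPM in replicate 3. LOC105946125 was at 5.93 to 14.0 TPM in the same 6 libraries and was listed at 0 in all 3 of replicate 3.

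Genes of the translation machinery were higher as a group in replicate 3. Of 79 cytosolic ribosomal protein genes tested, 59 were called higher and none lower, where 14.5% of all genes were called higher, and their median difference was 1.1 on the log2 scale. *rps10*, of the small subunit, was at 820.1 to 1197 TPM (median 974) in replicates 1 and 2 and at 2807, 3109 and 2092 TPM in replicate 3 (1.40 ± 0.15 (SE), limma adjusted p = 0.000609). *fau*, which encodes a small-subunit protein fused to a ubiquitin-like one, was at 685 to 1031 TPM (median 850.2) and then at 2366, 2716 and 1834 TPM (1.42 ± 0.16 (SE), limma adjusted p = 0.000735). The ribosomal protein genes together took up 15.1%, 16.0% and 11.6% of the total TPM of control, Fgf4 and Cic knockdown library 3, and 6.19% to 10.2% of the other 6. With all libraries at 1 total, 41 were called higher and none lower, and the median was 0.84 where that of all genes was -0.22. The count was 44 to 67 when libraries were left out. *rpl32*, a large-subunit gene picked out after its values were seen, was uneven within the other numbers. It stood at 54.0 to 794 TPM in replicates 1 and 2, with all 3 libraries of replicate 2 under 61 TPM, and at 3185, 2898 and 1679.6 TPM in replicate 3. Of 72 mitochondrial ribosomal protein genes, a list added after values were seen, 27 were higher and none was lower (median 0.52), and 14 were higher and 2 lower with libraries at 1 total.

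Nuclear genes of oxidative phosphorylation, the electron transport chain and ATP synthase of the mitochondrion, rose in the same libraries. Of 80 tested, 41 (51.2%) were called higher and 2 (2.5%) lower, against 14.5% and 12.5% of all genes (median 0.85). At 1 total 27 were higher and 5 lower, against 8.65% and 20.3% of all genes. *ndufc2*, of complex I, was at 60.5 to 84.2 TPM (median 74.6) in replicates 1 and 2 and at 258, 314 and 174 TPM in replicate 3 (1.72 ± 0.13 (SE), limma adjusted p = 0.00026). *ndufa4*, a subunit of the respiratory chain, was at 272 to 360.1 TPM (median 341) and then at 742, 847 and 765 TPM (1.27 ± 0.11 (SE), limma adjusted p = 0.000347). Neither overlapped between the groups. The list took up 2.05% to 2.14% of the total in replicate 3 and 1.48% to 1.60% in the rest. *atp5c1*, the gamma subunit of ATP synthase, went the other way, from a median of 59.0 TPM (range 45.9 to 65.7) to 18.7, 10.8 and 13.9 TPM (-1.99 ± 0.19 (SE), limma adjusted p = 0.000403). The other member called lower was *uqcrc2*, of complex III. Proteasome genes, a list added after *psma7* was seen, had 12 of 40 higher and 2 lower (median 0.55), and 5 and 4 with libraries at 1 total. *psmb3* of the core was at 171 to 231 TPM (median 206) and then at 532, 583 and 519 TPM (1.42 ± 0.11 (SE), limma adjusted p = 0.00027).

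**Figure D3:**
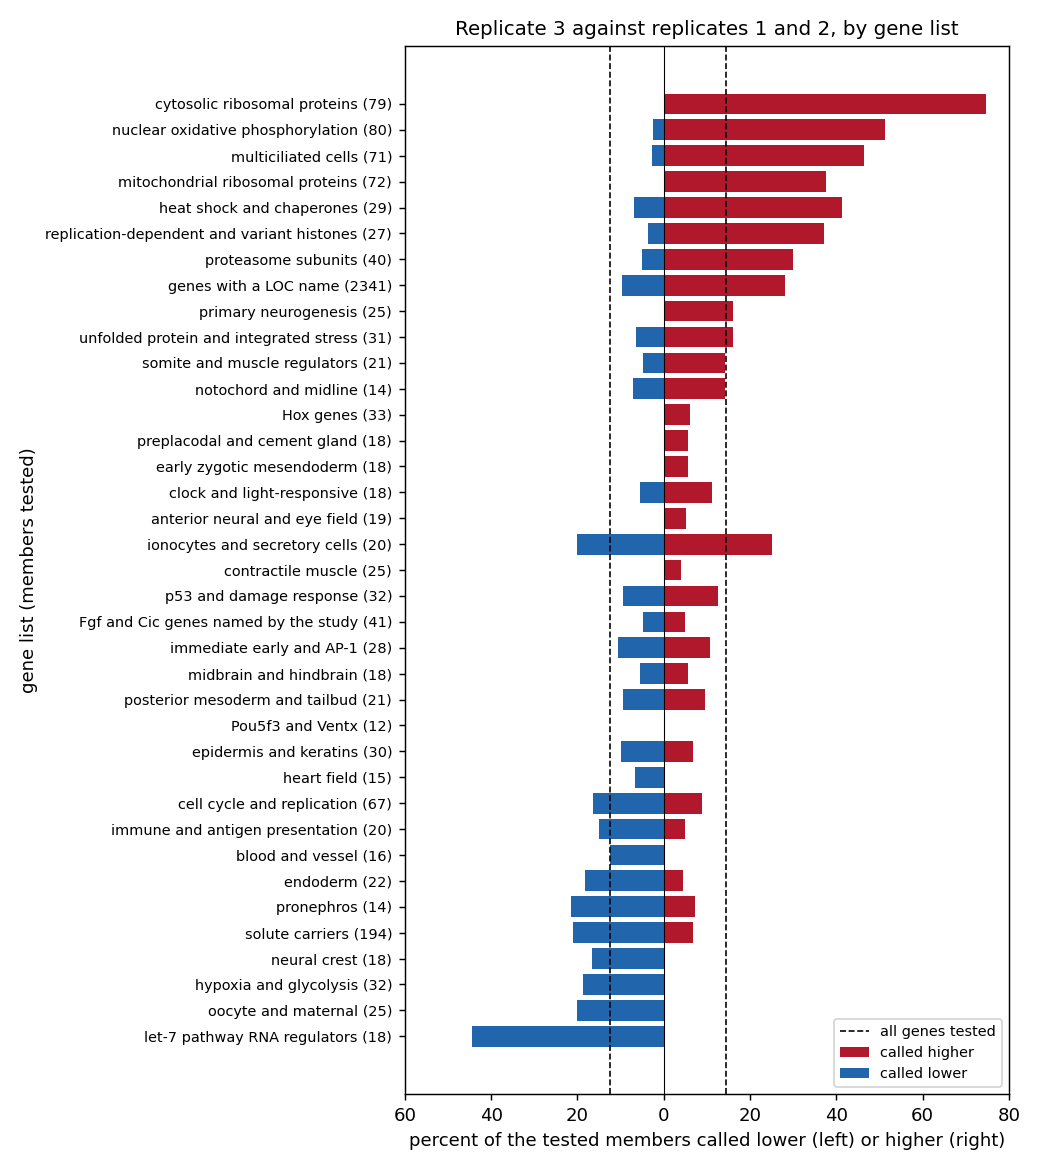
Bars give the percent of each list's tested genes called higher (right, red) or lower (left, blue) in replicate 3, with the number tested in brackets and dashed lines at the 14.5% and 12.5% of all genes. Ribosomal proteins reached 74.7% higher with none lower, and the *let-7* pathway list, which holds the genes that prompted it, 44.4% lower with none higher.

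Genes of multiciliated cells, the skin cells that bear many beating cilia, were higher in replicate 3. Of 71 tested, 33 (46.5%) were called higher and 2 (2.82%) lower, against 14.5% and 12.5% of all genes (median 0.88). At 1 total 22 were higher and 2 lower, against 8.65% and 20.3% of all genes. *cfap52*, which encodes a protein of the ciliary axoneme, was at 5.31 to 22.0 TPM (median 10.5) in replicates 1 and 2 and at 48.8, 43.5 and 46.4 TPM in replicate 3 (2.15 ± 0.31 (SE), limma adjusted p = 0.00162). *cfap53*, needed for ciliary motility, was at 5.49 to 12.5 TPM (median 8.61) and then at 23.9, 24.0 and 29.4 TPM (1.54 ± 0.20 (SE), limma adjusted p = 0.00112). *drc1*, of the dynein regulatory complex, was at 0.417 to 3.74 TPM (median 1.95) and then at 11, 7.18 and 7.95 TPM (2.13 ± 0.31 (SE), limma adjusted p = 0.0018). The groups did not overlap for any of these. Fgf4 libraries 1 and 2 were the lowest for *drc1*, at 0.417 and 0.664 TPM. The median difference over the list was 0.65 within the control libraries, 0.66 within Cic knockdown and 1.55 within Fgf4, and without Fgf4 library 3 the count of genes called higher fell to 19. The level of *fgf4* was itself uneven, at 1692, 168 and 95.4 TPM in Fgf4 libraries 1, 2 and 3. Whether that level bears on differences within Fgf4, here or in the lists below, was not tested. Among the regulators, *mcidas*, a coiled-coil factor that starts the multiciliated program, stood at 1.31 to 36.7 TPM (median 22.4) in replicates 1 and 2 and at 52.0, 41.9 and 82.7 TPM in replicate 3. Its call (1.87 ± 0.64 (SE), limma adjusted p = 0.0493) was lost in 7 of the 11 fits that left libraries out, all but those without Fgf4 library 1, Fgf4 library 2, replicate 1 or replicate 2. The lowest of their log2 differences was 1.19 and the highest 2.55. *foxj1*, the master regulator of motile cilia, was at 16.4 to 32.3 TPM (median 26.7) against 25.2, 22.3 and 49.5 TPM and was not called (0.29 ± 0.27 (SE), limma adjusted p = 0.419). The gene entry *foxj1.2*, a member of the notochord and midline list, was called higher (limma adjusted p = 0.00693). It stood at 2.28 to 7.92 TPM (median 6.34) in replicates 1 and 2 and at 11.6, 9.53 and 21.9 TPM in replicate 3. The call of *foxj1.2* was kept in all 11 fits that left libraries out. *rfx2*, a transcription factor of ciliary genes, was one of the 2 members of the multiciliated list called lower. In whole embryos, more cells of a type and more RNA per cell cannot be told apart.

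**Figure D4:**
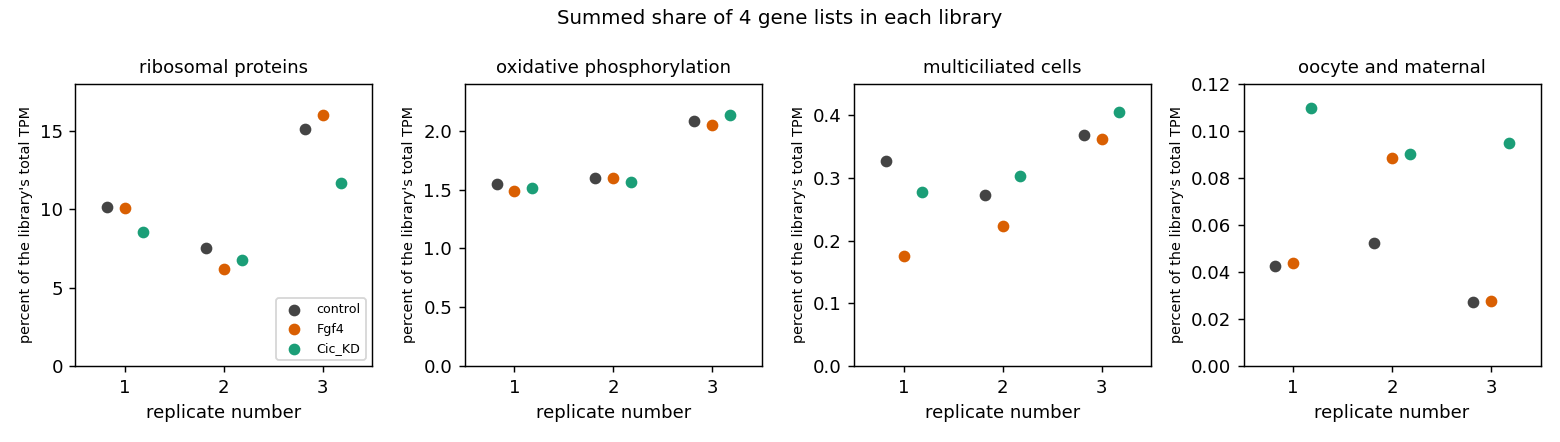
Points give the share of each library's total TPM, in percent, held by the summed genes of 4 lists, by replicate number and coloured by treatment. Ribosomal protein, oxidative phosphorylation and multiciliated genes are higher in all 3 libraries of replicate 3 than in any other, and the oocyte and maternal genes overlap, with Cic knockdown library 3 inside the range of the others.

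Genes of ionocytes, the ion-transporting cells of the skin, were called in both directions. Of 20 genes of ionocytes and secretory cells tested, 5 (25%) were higher and 4 (20%) lower, against 14.5% and 12.5% of all genes. The median was 1.12, and 15 of the differences were above 0. At 1 total 2 (10%) were higher and 4 (20%) lower, against 8.65% and 20.3% of all genes. As deposited, 1 was lower without control library 3 or Cic knockdown library 3. *foxi1*, the ionocyte master regulator, was at 72.3 and 70.4 TPM in control libraries 1 and 2, 1.76 and 24.3 TPM in the Fgf4 libraries, 52.4 and 44.0 TPM in the Cic knockdown libraries and 113, 96.8 and 219 TPM in replicate 3. The replicate 3 libraries were above all others, but the gene did not pass the test (2.18 ± 0.77 (SE), limma adjusted p = 0.0542). The median difference of the list was 2.19 within the Fgf4 libraries, 0.60 within control and 0.27 within Cic knockdown. Without Fgf4 library 3, none was called higher, and without control library 2 or 3 or Cic knockdown library 2, 1 was. Epidermal genes had 2 of 30 higher and 3 lower (median 0.07). *dsc3*, a desmosomal cadherin, fell from a median of 48.9 TPM (range 26.2 to 58.0) to 18.2, 20.1 and 17.9 TPM (-1.25 ± 0.22 (SE), limma adjusted p = 0.00411), and *anxa1*, annexin A1, from a median of 131 TPM (range 94.6 to 180.1) to 72.8, 46.6 and 67.3 TPM (-1.1 ± 0.21 (SE), limma adjusted p = 0.00564). The keratin gene entry *krt* rose from a median of 5051 TPM (range 2943 to 5785) to 9691, 9805 and 8786 TPM (1.04 ± 0.19 (SE), limma adjusted p = 0.00447), a call that was lost with all libraries at 1 total and after quantile normalization.

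Neural and mesodermal regulators were called in shares near or below those of all genes, which were 14.5% higher and 12.5% lower. Of 25 genes of primary neurogenesis, 4 (16%) were called higher, against 14.5% of all genes, and none lower (median 0.19). *neurog1*, a proneural factor, was at 3.44 to 15.0 TPM (median 7.97) in replicates 1 and 2 and at 31.6, 28.0 and 18.4 TPM in replicate 3 (1.66 ± 0.31 (SE), limma adjusted p = 0.00479). The others were *myt1*, *stx1a* and *neurog2*, and without Fgf4 library 3 the count was 1. The median difference of this list was 0.08 within control, 1.05 within Fgf4 and -0.50 within Cic knockdown, so its direction differed between treatments. Of 19 genes of the anterior neural plate and eye field, 1 was called higher, with a median of 0.62 and 17 of the differences above 0. The called gene, *fezf2*, a forebrain factor, was at 8.21 and 9.78 TPM in control libraries 1 and 2, 1.04 and 1.2 TPM in the Fgf4 libraries, 0.268 and 3.46 TPM in the Cic knockdown libraries and 18.6, 10.4 and 5.72 TPM in replicate 3. Control library 3 was the highest of all, and the Fgf4 and Cic knockdown libraries of replicate 3 lay near the controls of the other numbers. Its difference of 1.87 ± 0.52 (SE) (limma adjusted p = 0.0235) was no longer called without Fgf4 library 3 (1.43), Cic knockdown library 3 (1.89) or replicate 1 (1.41). *six3*, an eye field factor, stood at 27.1 and 26.2, 1.51 and 3.44 and 0.546 and 9.05 TPM in the control, Fgf4 and Cic knockdown libraries 1 and 2 and at 45.4, 16.1 and 10.3 TPM in replicate 3, and was not called (1.69 ± 0.66 (SE), limma adjusted p = 0.0757). For this list the median difference was 1.44 within Fgf4, 0.22 within control and 0.14 within Cic knockdown. Midbrain and hindbrain genes had 1 of 18 called in each direction. Their median difference was 0.02 within control, 0.97 within Fgf4 and -0.66 within Cic knockdown.

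In the mesoderm, *hes7.2* and *esr-5*, repressors of the Hairy/Enhancer-of-split family, rose without overlap. *hes7.2* was at 35.3 to 89.7 TPM (median 48.6) and then at 172, 215 and 159.9 TPM (1.79 ± 0.20 (SE), limma adjusted p = 0.000748). *esr-5* was at 99.7 to 321 TPM (median 126) and then at 404, 499.6 and 364 TPM (1.57 ± 0.26 (SE), limma adjusted p = 0.00269). They were the 2 of 21 genes of posterior mesoderm and tailbud called higher. The caudal-type homeobox genes *cdx1* and *cdx2* were the 2 called lower. Each count is 9.52% of that list, against 14.5% higher and 12.5% lower for all genes. Somite and muscle regulators had 3 of 21 higher, among them *myod1* and *ripply2.1*, and 1 lower (*aldh1a2*), and none of the 3 stayed higher without Cic knockdown library 1 or with all libraries at 1 total. Notochord and midline genes had 2 of 14 higher and 1 lower, contractile muscle 1 of 25 higher, and Hox genes 2 of 33 higher. The median difference of contractile muscle was 0.78 within control, 1.00 within Fgf4 and -0.94 within Cic knockdown. That of Hox genes was 0.49, 0.53 and -0.28 in the same order. Both Hox calls were lost without control library 3.

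Some markers of endoderm, kidney and neural crest were called lower, in shares not far from that of all genes. Of 22 endoderm genes, 4 were lower and 1 higher, with 2 lower without Cic knockdown library 3. Pronephros genes had 3 of 14 lower and 1 higher, among them *osr1*, an early kidney field factor, at 20.1 to 44.2 TPM (median 30.8) in replicates 1 and 2 and then at 7.85, 15.9 and 15.5 TPM in replicate 3 (-1.20 ± 0.16 (SE), limma adjusted p = 0.00122). Of 18 neural crest genes, 3 were lower and none higher. Their median difference was 0.01 within control, 0.38 within Fgf4 and -0.59 within Cic knockdown. *msx2*, a homeobox factor of the neural border, was at 88.3 to 120.1 TPM (median 92.9) and then at 43.3, 57.5 and 58.7 TPM (-0.88 ± 0.13 (SE), limma adjusted p = 0.00184). *ets1*, an Ets factor of crest and vessels, was at 20.0 to 82.9 TPM (median 50.9) and then at 20.2, 11.7 and 14.7 TPM (-1.45 ± 0.22 (SE), limma adjusted p = 0.00191), with Fgf4 library 1 inside the range of replicate 3. Shares of these lists called lower were 16.7% to 21.4%, against 12.5% of all genes. Their medians were -0.01 for endoderm, -0.15 for pronephros and 0.15 for neural crest, beside 0.03 for all genes. At 1 total, 5 of 22 endoderm, 4 of 14 pronephros and 3 of 18 neural crest genes were lower. The share of all genes there was 20.3%. As a summed share of the library's total, endoderm genes took up 0.139% to 0.148% in replicate 3 and 0.198% to 0.247% in the rest. Pronephros genes took up 0.209% to 0.293% and 0.328% to 0.470%, so neither list overlapped. Neural crest genes did, at 0.259% to 0.275% and 0.258% to 0.314%. As summed TPM, endoderm stayed apart (1566 to 1676 against 1824 to 2232) and pronephros overlapped (2281 to 3323 against 3020 to 4661). In the blood and vessel list, of which 16 of 47 genes were tested, *ptprc*, the leukocyte antigen CD45, was at 1.53 to 7.36 TPM (median 3.73) and then at 0.145, 0.129 and 0.18 TPM (-2.60 ± 0.43 (SE), limma adjusted p = 0.00295), and 2 were called lower in all. The heart field had 1 of 15 lower, the frizzled receptor gene *fzd7*. Its summed share was 0.0266% to 0.0371% in replicate 3 and 0.0439% to 0.0798% in the rest. As summed TPM the heart field overlapped (290 to 431 against 402 to 736).

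Oocyte and maternal genes, whose RNA the egg supplies, had 5 of 25 (20%) lower and none higher, against 12.5% and 14.5% of all genes. Their median was -0.00060, and 3 were lower without control library 3 or Fgf4 library 3. At 1 total, 7 (28%) were lower and none higher, where 20.3% of all genes were lower. *dazl*, a germ plasm RNA-binding protein, was at 45.1 and 66.3 TPM in control libraries 1 and 2, 62.8 and 107 TPM in Fgf4, 102 and 93.4 TPM in Cic knockdown and 14.8, 15.4 and 35.6 TPM in replicate 3. Every replicate 3 library was below the lowest of the other 6 (-1.89 ± 0.24 (SE), limma adjusted p = 0.00104). *pgat*, another germ plasm transcript, was at 14.5 to 53.2 TPM (median 31) and then at 6.26, 4.12 and 14.4 TPM (-1.95 ± 0.41 (SE), limma adjusted p = 0.00762). The summed level of the list ranged from 391 to 958 TPM in replicates 1 and 2 and from 315 to 1036 TPM in replicate 3. As a share of the library's total it was 0.0272% to 0.0948% in replicate 3 and 0.0424% to 0.110% in the rest, so the groups overlapped on both scales. Early zygotic mesendoderm genes had 1 of 18 higher (*gsc*) and none lower, and none higher and 2 lower with all libraries at 1 total. Their median difference was -0.0034 within control, -0.63 within Fgf4 and 0.61 within Cic knockdown. *gsc*, an organizer homeobox gene, passed in 5 and missed in 6 of the 11 leave-out fits (log2 differences from 0.96 to 1.86). Of 12 Pou5f3 and Ventx genes none was called, with a median of 0.38.

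Chaperone genes were called higher more often than lower. Of 29 heat shock and chaperone genes, 12 (41.4%) were higher and 2 (6.90%) lower, against 14.5% and 12.5% of all genes (median 0.54), and 9 and 4 with libraries at 1 total. *hsp90aa1.1*, a stress-inducible Hsp90, was at 0.953 to 3.59 TPM (median 1.92) in replicates 1 and 2 and at 58.1, 49.8 and 33.6 TPM in replicate 3 (4.31 ± 0.35 (SE), limma adjusted p = 0.000267). The copy *hsp90aa1.2*, with which reads could be shared, was at 0.184 to 1.05 TPM (median 0.444) and then at 6.78, 4.46 and 4.3 TPM. *serpinh1*, the collagen chaperone Hsp47, was at 6.94 to 55.4 TPM (median 16.9) and then at 277, 257 and 103 TPM (3.33 ± 0.64 (SE), limma adjusted p = 0.00533). Both were above all other libraries in every library of replicate 3. *hspe1*, the mitochondrial Hsp10, rose from a median of 34 TPM (range 32.7 to 44.0) to 112, 116 and 106 TPM (1.64 ± 0.12 (SE), limma adjusted p = 0.000211), and *hspa5*, the Hsp70 of the endoplasmic reticulum, from a median of 162 TPM (range 115 to 224) to 449.9, 398 and 344 TPM (1.3 ± 0.19 (SE), limma adjusted p = 0.00167). *hsph1*, the Hsp110 that exchanges nucleotide on Hsp70, fell from a median of 67.4 TPM (range 53.7 to 82.2) to 15.8, 9.49 and 19.6 TPM (-2.17 ± 0.23 (SE), limma adjusted p = 0.000609). The summed share of the list was lower in replicate 3, at 1.67% to 1.91% of the total against 2.29% to 2.84%. Without Cic knockdown library 3 the number called higher was 8.

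Other stress lists gave fewer calls, to be read against 14.5% higher and 12.5% lower for all genes. Genes of the unfolded protein and integrated stress responses had 5 of 31 higher and 2 lower, with 2 higher without Fgf4 library 3 and 1 higher with all libraries at 1 total. *atf4*, the main transcription factor of the integrated stress response, rose from a median of 309 TPM (range 247 to 348) to 636, 717 and 562 TPM (1.07 ± 0.15 (SE), limma adjusted p = 0.00145), but was not called with all libraries at 1 total. p53 and damage response genes had 4 of 32 higher and 3 lower, and 1 higher and 6 lower with all libraries at 1 total. The number higher was 2 without control library 2 or 3, Fgf4 library 1 or 3, or Cic knockdown library 2 or 3. *sesn3*, a sestrin, fell from a median of 21.6 TPM (range 15.7 to 30.2) to 6.96, 7.3 and 5.24 TPM (-1.71 ± 0.22 (SE), limma adjusted p = 0.00116), and *bax*, a pro-apoptotic Bcl-2 protein, from a median of 66.9 TPM (range 52.6 to 81.4) to 26.1, 25.5 and 31.7 TPM (-1.26 ± 0.17 (SE), limma adjusted p = 0.0013). Of 32 hypoxia and glycolysis genes, none was higher and 6 (18.8%) were lower, against 12.5% of all genes (median -0.23). The number lower was 3 without Fgf4 library 3 or either Cic knockdown library 2 or 3. At 1 total, 8 (25%) were lower and none higher, where 20.3% of all genes were lower. *hif1a*, the oxygen-regulated transcription factor, fell from a median of 102 TPM (range 81.8 to 116) to 35.8, 35.8 and 36.2 TPM (-1.45 ± 0.12 (SE), limma adjusted p = 0.00027). *gpi*, the enzyme of the second step of glycolysis, fell from a median of 31.2 TPM (range 22.4 to 58.3) to 4.08, 3.92 and 9.01 TPM (-2.51 ± 0.35 (SE), limma adjusted p = 0.00144).

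Genes of the cell cycle were called in both directions. Of 67 tested, 6 (8.96%) were higher and 11 (16.4%) lower, against 14.5% and 12.5%, with a median of -0.05. *top2a*, the topoisomerase of replicating chromosomes, fell from a median of 68.6 TPM (range 48.2 to 79.0) to 29.5, 18.4 and 22.1 TPM (-1.48 ± 0.15 (SE), limma adjusted p = 0.000571). *cdt1*, a licensing factor of replication origins, fell from a median of 139 TPM (range 97.8 to 264) to 51.4, 43.1 and 59.1 TPM (-1.53 ± 0.29 (SE), limma adjusted p = 0.00536). *gins1*, of the replicative helicase, rose from a median of 18.5 TPM (range 13.3 to 23.6) to 74.4, 64.4 and 56.6 TPM (1.78 ± 0.16 (SE), limma adjusted p = 0.000329), and *cdk1*, the mitotic kinase, from a median of 70.6 TPM (range 54.7 to 96.4) to 184, 162 and 162 TPM (1.22 ± 0.14 (SE), limma adjusted p = 0.000728). With libraries at 1 total, 3 were higher and 18 lower, and without replicate 2 there were 10 in each direction. The median difference of the cell cycle list was -0.13 within control, -0.36 within Fgf4 and 0.37 within Cic knockdown. Among 27 histone genes, 10 were higher and 1 lower (median 0.87), and 6 were higher without Cic knockdown library 3. Most histone mRNAs of dividing cells lack a poly(A) tail, which these libraries select for. *hist1h1d*, a linker histone, rose from a median of 6.69 TPM (range 4.56 to 8.66) to 22.4, 27.4 and 38.5 TPM (2.09 ± 0.17 (SE), limma adjusted p = 0.00027). *h2afj*, an H2A variant, was the member called lower, at 5.43 to 21.4 TPM in replicates 1 and 2 and listed at 0, 0 and 1.34 TPM in replicate 3. The summed histone genes overlapped between replicate 3 (0.897% to 1.24% of the total) and the rest (0.863% to 1.14%).

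Some of the genes that the study names for Fgf4 and Cic were chosen by its authors on these samples. Others, such as *etv1*, it names from earlier work. Few of the listed genes were called between replicate numbers. Of 41, 2 were called higher and 2 lower, against 14.5% and 12.5% of all genes, with a median of 0.25 and 26 of the differences above 0. A low count does not show that these genes were alike between replicate numbers. *frzb*, which the study names, was not called (-1.17 ± 0.42 (SE), limma adjusted p = 0.0569). Its difference was -0.03 within control, -2.02 within Fgf4 and -1.45 within Cic knockdown. *etv1*, an Ets factor of Fgf signalling, was at 210.4 and 262 TPM in control libraries 1 and 2, 408 and 277 TPM in Fgf4, 212 and 222 TPM in Cic knockdown and 99.2, 114 and 119 TPM in replicate 3 (-1.21 ± 0.18 (SE), limma adjusted p = 0.00188). Every replicate 3 library lay below all others, and within replicate 3 the treatments were close. *jun*, a subunit of the AP-1 transcription factor, was at 4.13 and 6.55, 8.36 and 32.7 and 47.0 and 35.1 TPM in the control, Fgf4 and Cic knockdown libraries 1 and 2 and at 33.6, 80.6 and 82.0 TPM in replicate 3. Control library 3 lay within the range of the injected embryos of the other numbers. Its call (1.94 ± 0.45 (SE), limma adjusted p = 0.0116) was lost without control library 3 (1.62) or Fgf4 library 3 (1.79). *fam83c* and *fezf2* were the others called. None of the 41 was called higher without Fgf4 library 3, and 6 were without Fgf4 library 2. Immediate early and AP-1 genes had 3 of 28 called in each direction, and 1 higher and 5 lower with all libraries at 1 total. Among them *ier2* rose from a median of 81.5 TPM (range 49.8 to 93.6) to 123.5, 170.1 and 142.4 TPM (0.94 ± 0.13 (SE), limma adjusted p = 0.00136), a call lost with all libraries at 1 total, and *dusp4*, a phosphatase of Erk, fell from a median of 15.5 TPM (range 13.1 to 21.9) to 5.94, 6.24 and 6.57 TPM (-1.33 ± 0.16 (SE), limma adjusted p = 0.000884).

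**Figure D5:**
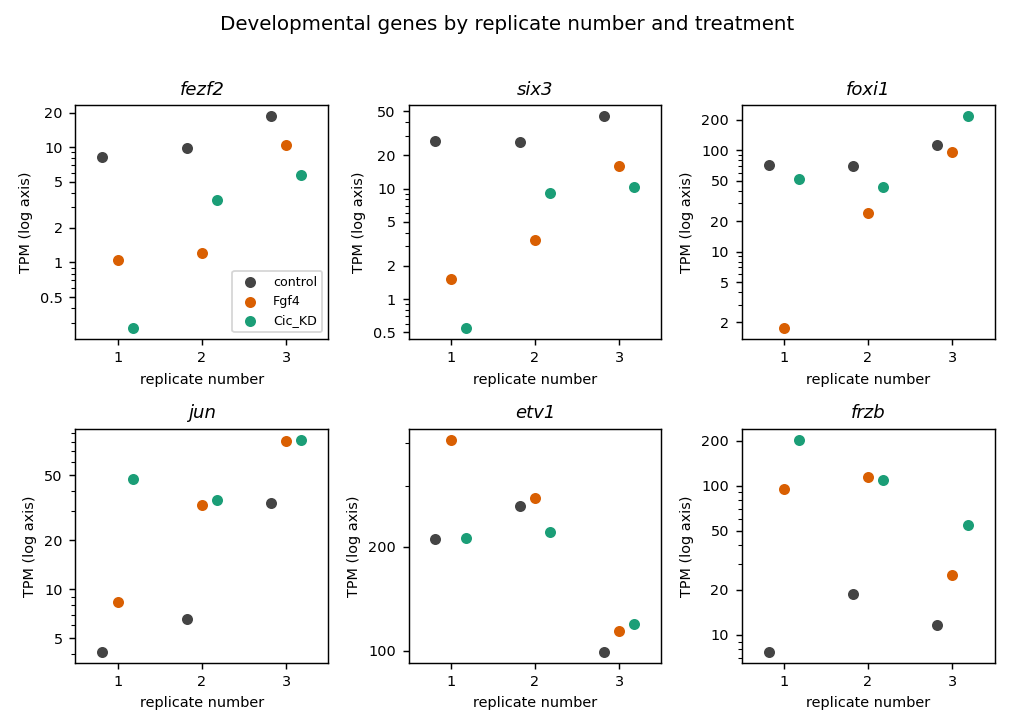
Points give the TPM of 6 developmental genes in each of the 9 libraries on a log axis, by replicate number and coloured by treatment. In replicate 3 *etv1* is below all other libraries, at 99.2, 114 and 119 TPM, *foxi1* is above all others, and control library 3 is the highest of all for *fezf2* and *six3*.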

How the data were processed

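The authors trimmed reads with cutadapt, quantified them with Salmon against *X. tropicalis* genome v9.1 and aggregated them by gene with sleuth (versions not given in the sources used here). The deposited signal values are gene-level TPM, rescaled between libraries by factors the sources used here do not name. They hold no counts, so depth is unknown and no counting interval is given. Authors' mean columns were not used, and all per-sample columns were mapped. Libraries were grouped by treatment and replicate number from the labels. After subtraction of treatment means, libraries that share a number correlated (mean 0.618, lowest 0.392, 9 pairs). Pairs of unlike number were not compared. An offset of replicate 3 alone can give such a correlation, so it does not show that each number is a batch. The study models embryo batch, and the replicate number was taken to stand for it.

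limma 3.58.1 (R 4.3.3; lmFit, eBayes with trend, 5 residual degrees of freedom) was run on log2(TPM + 0.5), two-sided, with Benjamini-Hochberg adjustment over 13117 genes, after tests on simulated data. Figures used matplotlib 3.10.9. Alternatives changed the replicate term, condition block, pseudocount, filter, scaling, variance prior, call limits and libraries.

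Named genes are the 10 of smallest p in each direction with a symbol and no overlap, those of the on-off rule, up to 4 per list by smallest p, *fgf4* and *cic*. *mcidas*, *foxj1*, *serpinh1*, *hsp90aa1.2*, *rpl32*, *atp5c1*, *lin28b*, *dicer1* and *cdt1* were added after their values were seen, as were genes given by name only. Members and lists were chosen with earlier results of these data known. The lists of proteasome, mitochondrial ribosomal, solute carrier, *let-7* pathway and LOC-named genes were added after values were seen. Transcript length and GC content were not checked here. Some genes that the rule names are not reported here.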

Additional observations from a re-analysis of the deposited data

Results flagged for a closer look

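Within the 6 libraries of replicates 1 and 2, which span the 3 treatments, 9 of the 176 genes checked had 1 library set apart from the other 5 by a gap that is large for the range of all 6. Chance flags about 1 in 20 groups of alike libraries, and 9 of 176 is close to that rate. These libraries differ in treatment, so the rate is only a guide. Fgf4 library 1 was lowest for *foxi1* (1.76 TPM) and *mcidas* (1.31 TPM) and highest for *esr-5* (321 TPM) and *hoxc6* (176 TPM). Fgf4 library 2 was lowest for *avpr2*, a vasopressin receptor (4.02 TPM), and highest for *hspe1* (44.0 TPM), *cry4*, a cryptochrome (46.4 TPM), and *hist1h2ad*, a histone H2A gene (18 TPM). Cic knockdown library 1 was lowest for *ndufv3*, of complex I (19.5 TPM). Fgf4 libraries thus held 8 of the 9 values. Without Fgf4 library 1, the log2 difference of replicate 3 from the rest was 1.57 for *foxi1* and 1.37 for *mcidas*.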

How the results depend on the processing

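With every library at a total of 1000000, 1135 genes were higher and 2666 lower, against 1902 and 1637, and 2772 of the main calls were kept. Median-of-ratios scaling gave 1779 and 1759, and quantile normalization 1731 and 1823. Leaving out a library or a replicate number gave 1269 to 2037 higher and 1198 to 1773 lower, lowest without control library 3. With no fold limit the numbers were 2740 higher and 2527 lower. With the replicate block of 3 levels there were 2069 higher and 1764 lower, and 3534 of the main calls were kept. With only the control and Cic knockdown libraries, an alternative chosen after seeing the data, there were 1693 higher and 1605 lower. Between replicates 2 and 1, an unadjusted p of at most 0.01 with the fold limit called 504 genes in place of 30. Of the named genes, *klf17*, an early zygotic factor that was not called (0.11), changed sign at 1 common total (-0.15) and in fits without libraries (-0.65 to 0.87), and *foxj1* changed sign in 1 such fit (-0.0038 to 0.46). For gene lists with at most 6 calls in a direction, leaving libraries out moved the count by up to 5, as from 0 to 5 higher for Pou5f3 and Ventx genes. The cause was not tested. Depth limits what can be said of genes near 0, since the values hold no counts.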

Other observations

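Genes of membrane transport were lower more often than higher in replicate 3. Of 194 solute carrier genes tested, a list added after values were seen, 41 (21.1%) were lower and 13 (6.70%) higher, against 12.5% and 14.5% of all genes, with a median of -0.32. *slc2a2*, a glucose transporter, was at 122 to 149.7 TPM (median 137) in replicates 1 and 2 and at 35.4, 38.6 and 31.9 TPM in replicate 3 (-1.93 ± 0.12 (SE), limma adjusted p = 0.000137). *slc39a10*, a zinc importer, was at 32.2 to 40.7 TPM (median 34.2) and then at 4.7, 4.81 and 8.36 TPM (-2.51 ± 0.20 (SE), limma adjusted p = 0.000262). *slc35c1*, a GDP-fucose transporter of the Golgi, was at 26.8 to 45.8 TPM (median 36.5) and then at 5.85, 4.71 and 7.58 TPM (-2.46 ± 0.17 (SE), limma adjusted p = 0.00017). None of these groups overlapped. The number called lower was 33 to 47 when libraries were left out and 57 of 195 (29.2%) with all libraries at 1 total, where 20.3% of all genes were lower, while that called higher fell to 6 without control library 3.

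Genes known by a LOC name alone, which are often copies or models without a named relative, were higher more often than lower. Of 2341 tested, 657 (28.1%) were higher and 229 (9.78%) lower, against 14.5% and 12.5% of all genes. With libraries at 1 total, 470 (20.1%) of 2333 were higher and 316 (13.5%) lower, against 8.65% and 20.3% of all genes. The number called higher was lowest without control library 3, at 403. LOC108648195 was at 148 to 206 TPM (median 177) in replicates 1 and 2 and at 1089, 1221 and 966 TPM in replicate 3. LOC100493091 was at 53.2 to 78.9 TPM (median 71.7) and then at 7.33, 6.56 and 8.05 TPM, every library below all others.

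Immune and antigen presentation genes had 1 of 20 higher and 3 lower. *cfb*, complement factor B, fell from a median of 178 TPM (range 81.0 to 513) to 44.2, 43.0 and 60.8 TPM (-1.97 ± 0.32 (SE), limma adjusted p = 0.00271), and *samhd1*, a dNTP hydrolase, from a median of 23.7 TPM (range 19.2 to 27.1) to 7.74, 8.84 and 7.31 TPM (-1.51 ± 0.14 (SE), limma adjusted p = 0.000356). *nfkbia*, the inhibitor of NF-kappaB, rose from a median of 40.4 TPM (range 31.7 to 43.6) to 81.5, 100.1 and 77.3 TPM (1.12 ± 0.14 (SE), limma adjusted p = 0.000974). Clock and light-responsive genes had 2 of 18 higher (*cry1* and *per1*) and 1 lower, *cry4*, from a median of 29.9 TPM (range 26.5 to 46.4) to 9.42, 8.68 and 11.1 TPM (-1.64 ± 0.19 (SE), limma adjusted p = 0.000819). Neither of the genes called higher was called without control library 3. Preplacodal and cement gland genes had 1 of 18 higher, and of 7 hatching gland genes tested none was called. No gene encoded in the mitochondrial genome was found in the table under the names listed. Of the 13117 genes tested, 2136 (16.3%) lay outside the range of replicates 1 and 2 in opposite directions in different treatments.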
